A study of Mus musculus with 34 samples.

Results

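Metabolic nuclear receptors are transcription factors that bind small lipophilic molecules and switch genes of nutrient, sterol, vitamin and drug metabolism. The 10 genes described here, *Ppara*, *Ppard*, *Pparg*, *Rxra*, *Vdr*, *Nr1h3*, *Nr1i2*, *Nr5a2*, *Rara* and *Thra*, were chosen by name, out of 21938 protein-coding genes with a promoter value. H3K4me3 (trimethylation of lysine 4 of histone H3) marks the first nucleosomes of genes with an active promoter. For each gene it was read as the mean signal within 1000 bp of the gene 5′ end in GENCODE M21 (mm10), and at each of the other annotated transcript starts. It was measured by CUT&RUN, in which an antibody brings protein A fused to micrococcal nuclease to the mark and the released DNA is sequenced. The cells were villus cells scraped from small intestine of normal appearance, from wild-type C57BL/6J mice and from ApcMin/+ mice on the same background, 5 weeks old by the labels, with 2 libraries of each genotype. ApcMin/+ mice are heterozygous in every cell for a truncating allele of *Apc*, a negative regulator of Wnt signalling, and develop intestinal adenomas. Scraped villi hold absorptive and secretory epithelium and some cells of the layers beneath, so fewer marked cells and less mark per cell cannot be told apart.

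Most of these receptors bind DNA as heterodimers with a retinoid X receptor, at pairs of a short half-site, and recruit corepressors or coactivators depending on the ligand. In enterocytes the PPARs respond to absorbed fatty acids, the liver X receptors to oxysterols, the pregnane X receptor to drugs and bile acids, the vitamin D receptor to calcitriol during calcium uptake, the retinoic acid receptors to vitamin A derivatives and the thyroid hormone receptors to triiodothyronine. *Nr5a2* encodes liver receptor homolog, which binds DNA as a monomer and takes part in crypt cell renewal and local steroid synthesis.

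The tracks were scaled to 10000000 tags, from a depth of 1430000 tags in wild-type replicate 1, 4790000 in wild-type replicate 2, 3700000 in ApcMin/+ replicate 1 and 5470000 in ApcMin/+ replicate 2. Where values are given for the genotypes below, replicate 1 comes first. ApcMin/+ replicate 1 stood apart, with 43.3% of its signal in enriched regions against 11.9% to 22.6% in the other libraries, and a mean promoter signal of 6.85 against 1.76 to 2.59. A value is therefore also given relative to the median tested promoter of its own library (4.53, 3.06, 13.2 and 4.18 in the order above), where a tested promoter is 1 of the 9931 with a mean signal of at least 2. The enterocyte marker *Vil1*, which encodes the microvillus protein villin, had a signal of 4.55 to 33.0, and 10 of 12 enterocyte markers passed that level. None of the 9 mesenchymal, 9 immune, 6 endothelial or 7 muscle and fat markers passed it, and *Lyz1* and *Defa24* of Paneth cells were at 0.68 or below in every library. Of 9 crypt markers, these Paneth genes included, 4 passed it, with mean signals of 9.70 at *Top2a* and 8.11 at *Mki67*, both genes of dividing cells, 3.12 at *Axin2* and 2.70 at *Smoc2*. Both ApcMin/+ values were above both wild-type values at 3 of these 4, against 38.5% of tested promoters. With each library centred on its median tested promoter this held for 1 of the 4, against 13.1%. The signal summed over the 9 was 18.0 and 12.9 in wild-type and 54.4 and 21.6 in ApcMin/+ libraries. Over the 12 enterocyte markers it was 70.8 and 40.3 in wild-type and 197 and 52.7 in ApcMin/+ libraries. The part of crypt cells in the results below was not tested. Summed over the 9 immune markers, the signal was 5.61 to 7.10 in wild-type and 6.67 to 10.1 in ApcMin/+ libraries.

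The gene 5′ end was often not the start with the highest signal. The 10 genes had 39 distinct transcript starts (starts within 500 bp joined), of which 24 had a mean signal of at least 2. The strongest start was the gene 5′ end only for *Ppard*, *Nr1h3* and *Nr1i2*, and *Nr1i2* had no other. For *Ppara*, *Pparg*, *Rxra* and *Thra* the window of the strongest start overlapped that of the 5′ end, so part of the signal was read in both. For *Vdr*, *Nr5a2* and *Rara* the 2 windows lay apart. The 250 bases upstream of 6 starts are printed here 5′ to 3′ on the gene's strand (mm10), with CpG dinucleotides in capitals, because *Nr5a2* and *Pparg* each had a marked and a weak or unmarked start, Vdr-201 carried the mark of *Vdr*, and *Nr1i2* had the highest signal with few CpGs.
Vdr-201, the marked start of *Vdr*, chr15:97908311-97908560, minus strand: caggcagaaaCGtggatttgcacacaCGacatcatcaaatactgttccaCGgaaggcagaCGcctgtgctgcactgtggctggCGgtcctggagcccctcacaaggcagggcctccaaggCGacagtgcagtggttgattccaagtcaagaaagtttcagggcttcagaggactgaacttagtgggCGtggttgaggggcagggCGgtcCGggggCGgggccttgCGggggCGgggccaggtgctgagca
Nr5a2-201, the weak 5′ end of *Nr5a2*, chr1:136960449-136960698, minus strand: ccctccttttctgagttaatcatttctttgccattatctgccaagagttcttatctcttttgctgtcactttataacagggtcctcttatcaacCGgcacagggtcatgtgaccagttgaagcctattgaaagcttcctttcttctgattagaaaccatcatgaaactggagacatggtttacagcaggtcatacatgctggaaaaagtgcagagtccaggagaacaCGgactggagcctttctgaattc
Nr5a2-202, the marked start of *Nr5a2*, chr1:136949563-136949812, minus strand: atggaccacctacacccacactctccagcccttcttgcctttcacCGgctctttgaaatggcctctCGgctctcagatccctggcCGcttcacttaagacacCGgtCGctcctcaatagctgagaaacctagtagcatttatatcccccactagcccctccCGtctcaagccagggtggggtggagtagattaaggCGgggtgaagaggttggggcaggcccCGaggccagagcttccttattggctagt
Pparg-201, the unmarked start of *Pparg*, chr6:115421816-115422065, plus strand: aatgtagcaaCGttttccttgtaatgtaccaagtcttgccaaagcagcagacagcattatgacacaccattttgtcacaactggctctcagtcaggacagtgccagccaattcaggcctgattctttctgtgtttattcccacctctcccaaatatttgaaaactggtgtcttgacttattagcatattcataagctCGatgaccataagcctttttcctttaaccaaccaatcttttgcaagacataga
Pparg-204, the marked start of *Pparg*, chr6:115362042-115362291, plus strand: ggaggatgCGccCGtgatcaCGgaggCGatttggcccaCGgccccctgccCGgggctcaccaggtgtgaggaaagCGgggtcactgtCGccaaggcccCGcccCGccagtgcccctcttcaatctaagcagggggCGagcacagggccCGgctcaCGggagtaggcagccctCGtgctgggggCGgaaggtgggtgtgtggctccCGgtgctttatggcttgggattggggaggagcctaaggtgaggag
Nr1i2-201, the marked and sole start of *Nr1i2*, chr16:38294825-38295074, minus strand: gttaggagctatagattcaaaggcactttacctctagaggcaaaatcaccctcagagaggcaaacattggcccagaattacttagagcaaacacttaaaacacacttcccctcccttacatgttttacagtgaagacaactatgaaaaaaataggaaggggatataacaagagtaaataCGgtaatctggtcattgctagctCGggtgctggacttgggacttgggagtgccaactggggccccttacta
These stretches held 12 CpGs for Vdr-201, 2 for Nr5a2-201 and 8 for Nr5a2-202, 2 for Pparg-201 and 16 for Pparg-204, and 2 for Nr1i2-201. Of the printed starts of *Nr5a2* and of *Pparg*, the one called marked was richer in CpG, and in *Nr1i2* the marked start was as poor as the weak or unmarked ones. Pparg-204 is called marked by the signal of its window, most of which lay upstream of it, towards Pparg-202.

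Of the xenobiotic and sterol receptors, *Nr1i2*, which encodes the pregnane X receptor, had the highest signal of the 10 genes (5′ end at position 38294824 of chromosome 16, minus strand). The wild-type libraries gave a signal of 14.8 and 6.41 and the ApcMin/+ libraries 39.0 and 8.59, and the mean exceeded that of 99.8% of all promoters. Every library placed it above at least 98.8% of promoters, at 2.06 to 3.27 times its median tested promoter. The mark lay downstream of the start, with 82.4% to 87.8% of the window's signal on that side against a median of 62.0% to 65.3% over 13303 marked starts, and reached its summit 570 to 930 bp into the gene. It filled an enriched region of 4500 bp, which was longer than 98.7% of the 55650 regions.

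*Nr1h3* encodes liver X receptor alpha, the oxysterol sensor of cholesterol efflux. The window at its 5′ end (position 91202834 of chromosome 2, minus strand), the start of a noncoding transcript, had a signal of 6.28 and 5.31 in wild-type and 26.4 and 5.94 in ApcMin/+ libraries. The 5′ ends of *Acp2* and of *Gm13783* lie in the same window and the same enriched region of 1900 bp, so this signal cannot be assigned to *Nr1h3* alone. The start of its coding transcripts, 7683 bp downstream, had a signal of 4.43 and 3.50 in wild-type and 12.0 and 3.75 in ApcMin/+ libraries, and no 5′ end of another gene lay in its window. The first of these 2 starts held 58.6% and 60.3% of their combined signal in wild-type and 68.7% and 61.3% in ApcMin/+ libraries. In each library the shared start was the stronger, and the 95% exact binomial intervals (counting error alone) overlapped, from 39.1% to 75.5% in wild-type replicate 1 to 62.9% to 74.0% in ApcMin/+ replicate 1.

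*Nr5a2* had a weak 5′ end and a strong internal start. At the 5′ end (position 136960448 of chromosome 1, minus strand) the signal was 1.05 and 0.68 in wild-type and 9.85 and 1.10 in ApcMin/+ libraries, which came from 3, 6, 73 and 12 fragments. At the start of Nr5a2-202, 10886 bp downstream, it was 4.37 and 3.98 in wild-type and 22.1 and 4.43 in ApcMin/+ libraries. The internal start was thus the stronger in each of the 4 libraries, and it lay in an enriched region of 4300 bp that was longer than 98.5% of all regions. The 5′ end held 19.3% (95% exact binomial interval 4.33% to 48.1%) and 14.5% (5.17% to 27.4%) of the combined signal in wild-type, and 30.8% (25.0% to 37.1%) and 19.8% (10.8% to 32.3%) in ApcMin/+ libraries. Both ApcMin/+ shares were above both wild-type shares, but ApcMin/+ replicate 2 and wild-type replicate 1 differed by less than their counting error. A two-sided exact permutation test of this share gave p = 0.333, which is the smallest p that 2 libraries against 2 allow. Another start, of Nr5a2-205, had a signal of 2.79 and 0.71 in wild-type and 3.61 and 1.31 in ApcMin/+ libraries.

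Of the fatty acid receptors, *Ppara*, which drives fatty acid oxidation, had a signal of 7.67 and 2.49 in wild-type and 13.6 and 3.19 in ApcMin/+ libraries at its 5′ end (position 85734983 of chromosome 15, plus strand). Its coding start, 581 bp downstream, had 9.31 and 3.21 in wild-type and 16.1 and 4.68 in ApcMin/+ libraries. The windows of the 2 starts overlap, and both lie in 1 enriched region of 2900 bp. The groups overlapped at both starts, since wild-type replicate 1 was above ApcMin/+ replicate 2. The 581 bp between them were too few to tell the starts apart, and the third start of the gene, 37231 bp from the 5′ end, was at 0.58 to 1.13.

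*Ppard*, the PPAR most widely expressed across tissues, was marked at a pair of starts of like strength that lie 39008 bp apart. The signal at its 5′ end (position 28232700 of chromosome 17, plus strand) was 6.28 and 2.61 in wild-type and 18.0 and 3.78 in ApcMin/+ libraries. At the start of Ppard-204 it was 4.79 and 3.99 in wild-type and 14.2 and 4.33 in ApcMin/+ libraries. The 5′ end held 56.7% and 39.6% of the combined signal in wild-type and 55.9% and 46.6% in ApcMin/+ libraries, so neither start led in all libraries and the groups overlapped. The internal start held 19 CpGs within 500 bp on each side, against 66 at the 5′ end.

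*Pparg* encodes the PPAR of adipocyte differentiation, which is also found in the gut epithelium. The signal at its 5′ end (position 115360951 of chromosome 6, plus strand) was 7.95 and 3.14 in wild-type and 11.7 and 3.82 in ApcMin/+ libraries, and at the next start, 1341 bp downstream, it was 8.29 and 4.77 in wild-type and 13.8 and 4.64 in ApcMin/+ libraries. Both windows read the same region of 1400 bp, the sole enriched region of the gene, which was longer than 80.6% of all regions. Its summit lay at -610 to -510 bp from the second start. Of the signal in its window, 90.0% to 100% lay downstream of the first start and 8.99% to 19.7% downstream of the second. The mark thus lay between the 2 starts and was not assigned to either. Pparg-201, whose start is the promoter of the adipocyte isoform, was unmarked at 0.35 and 0.53 in wild-type and 0.01 and 0.40 in ApcMin/+ libraries. It held 0.0802% to 10.1% of the signal it shared with Pparg-204, and the muscle and fat markers, *Adipoq* and *Lep* among them, were likewise at 2.09 or below in every library.

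*Vdr*, the receptor of calcitriol, had no detectable promoter mark at its gene 5′ end but a broad one 2320 bp downstream. At the 5′ end (chromosome 15, minus strand) the signal was 0.86 and 0.10 in wild-type and 0.18 and 0.097 in ApcMin/+ libraries, which was 1 to 2 fragments in each library and did not reach the level for a test. At Vdr-201 it was 9.30 and 3.92 in wild-type and 31.5 and 5.55 in ApcMin/+ libraries, from 27, 37, 233 and 61 fragments. The 5′ end held 8.46% and 2.60% of the combined signal in wild-type and 0.576% and 1.71% in ApcMin/+ libraries. All 4 libraries therefore placed the mark at Vdr-201 and not at the 5′ end. The enriched region around Vdr-201 and Vdr-205 was 6500 bp long, longer than 99.7% of all regions, and extended mostly into the gene. It was called on the mean of the 4 tracks, to which ApcMin/+ replicate 1 gave most (24.7 against 3.34 to 6.59). Within 1000 bp of Vdr-201, 71.0% of the signal lay downstream in ApcMin/+ replicate 1, against 47.1% to 48.7% in the other libraries. By its 5′ end *Vdr* ranked last of the 10 genes, and by its strongest start it came after *Nr1i2* and *Rara*.

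*Rara* and *Thra* encode receptors of retinoic acid and of thyroid hormone. At the 5′ end of *Rara* (position 98927818 of chromosome 11, plus strand) the signal was 1.74 and 1.38 in wild-type and 3.12 and 1.78 in ApcMin/+ libraries, just above the level for a test. It was 5.99 and 3.06 in wild-type and 20.1 and 3.49 in ApcMin/+ libraries at Rara-204, 9880 bp downstream. It was highest at Rara-202, 32594 bp downstream, with 10.2 and 6.56 in wild-type and 27.0 and 5.94 in ApcMin/+ libraries. The order of the 3 starts was the same in all 4 libraries. Rara-202 lay in a region of 4900 bp, longer than 99.1% of all regions, and the 5′ end held 10.4% to 23.1% of the signal that it shared with Rara-202.

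*Thra* had a signal of 1.74 and 1.43 in wild-type and 6.24 and 1.78 in ApcMin/+ libraries at its 5′ end (position 98740638 of chromosome 11, plus strand), from 5, 14, 46 and 19 fragments. Thra-201, 1173 bp downstream, had 5.58 and 2.32 in wild-type and 13.0 and 3.48 in ApcMin/+ libraries, in a region of 3900 bp that holds both starts. Thra-201 was the stronger start in each library. A start further into the gene, of Thra-203, lay in a low but long region of 6900 bp and had a signal of 1.68 and 1.56 in wild-type and 3.93 and 2.74 in ApcMin/+ libraries, and the noncoding Thra-206 start had 4.57, 0.64, 2.14 and 2.35.

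*Rxra* encodes the retinoid X receptor with which most of the other 9 pair. The signal at its 5′ end (position 27676440 of chromosome 2, plus strand) was 1.05 and 2.09 in wild-type and 6.61 and 1.92 in ApcMin/+ libraries, and at Rxra-201, 761 bp downstream, it was 2.83 and 3.98 in wild-type and 10.9 and 3.53 in ApcMin/+ libraries. The groups overlapped at both, with ApcMin/+ replicate 2 below wild-type replicate 2. The signal was at most 0.098, less than 1 fragment, within 200 bp of the start of Rxra-201 in every library, between enriched regions of 1000 and 3000 bp. The 1000 bp around that start were 78.3% G or C and held 151 CpGs, the most of the 39 starts. A like trough stood at Thra-201, where the signal within 200 bp was 0.55 and 0.90 in wild-type and 2.17 and 0.78 in ApcMin/+ libraries with 67.7% G or C, but not at Ppara-203, where it was 10.8, 2.05, 9.31 and 2.66 with 71.6% G or C. The part of base composition in these troughs was not tested.

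**Figure D1:**
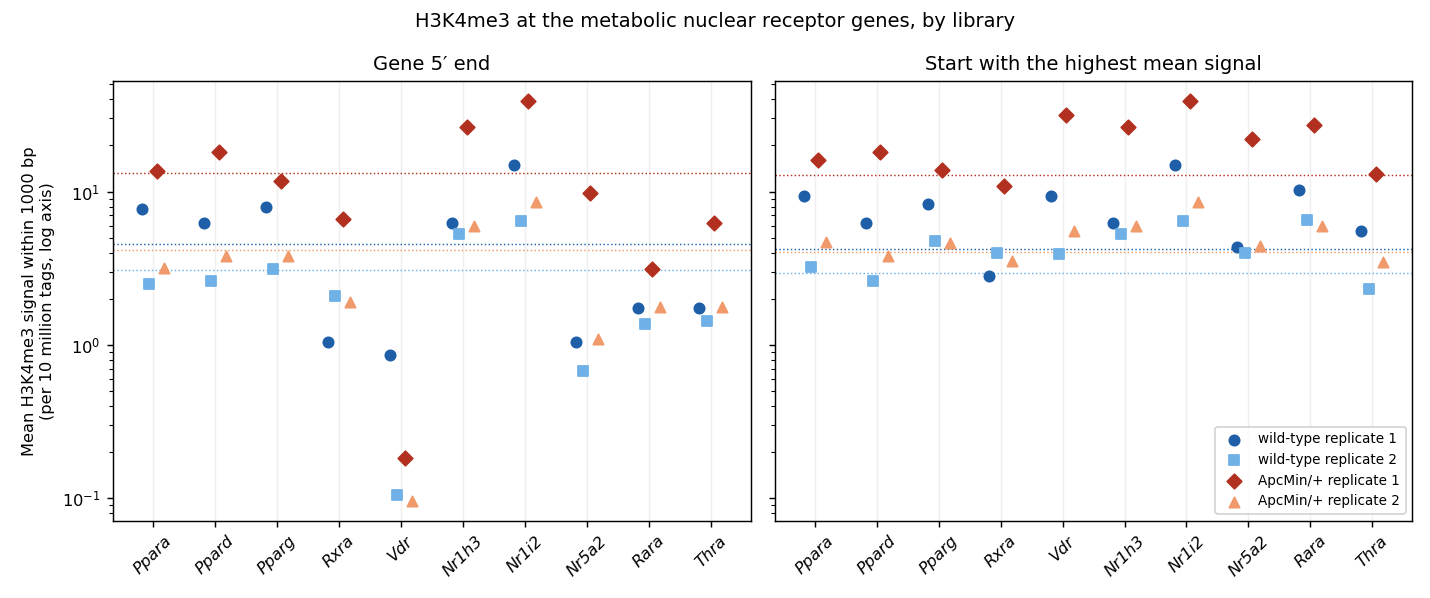
Mean H3K4me3 signal within 1000 bp (log axis) at the 5′ end of each gene (left) and at its start with the highest mean signal (right), 1 point per library, with dotted lines at each library's median tested promoter or start. *Nr1i2* lies above its library's line in all 4 libraries in both panels, and *Vdr* goes from 0.097 to 0.86 at the 5′ end to 3.92 to 31.5 at Vdr-201.

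**Figure D2:**
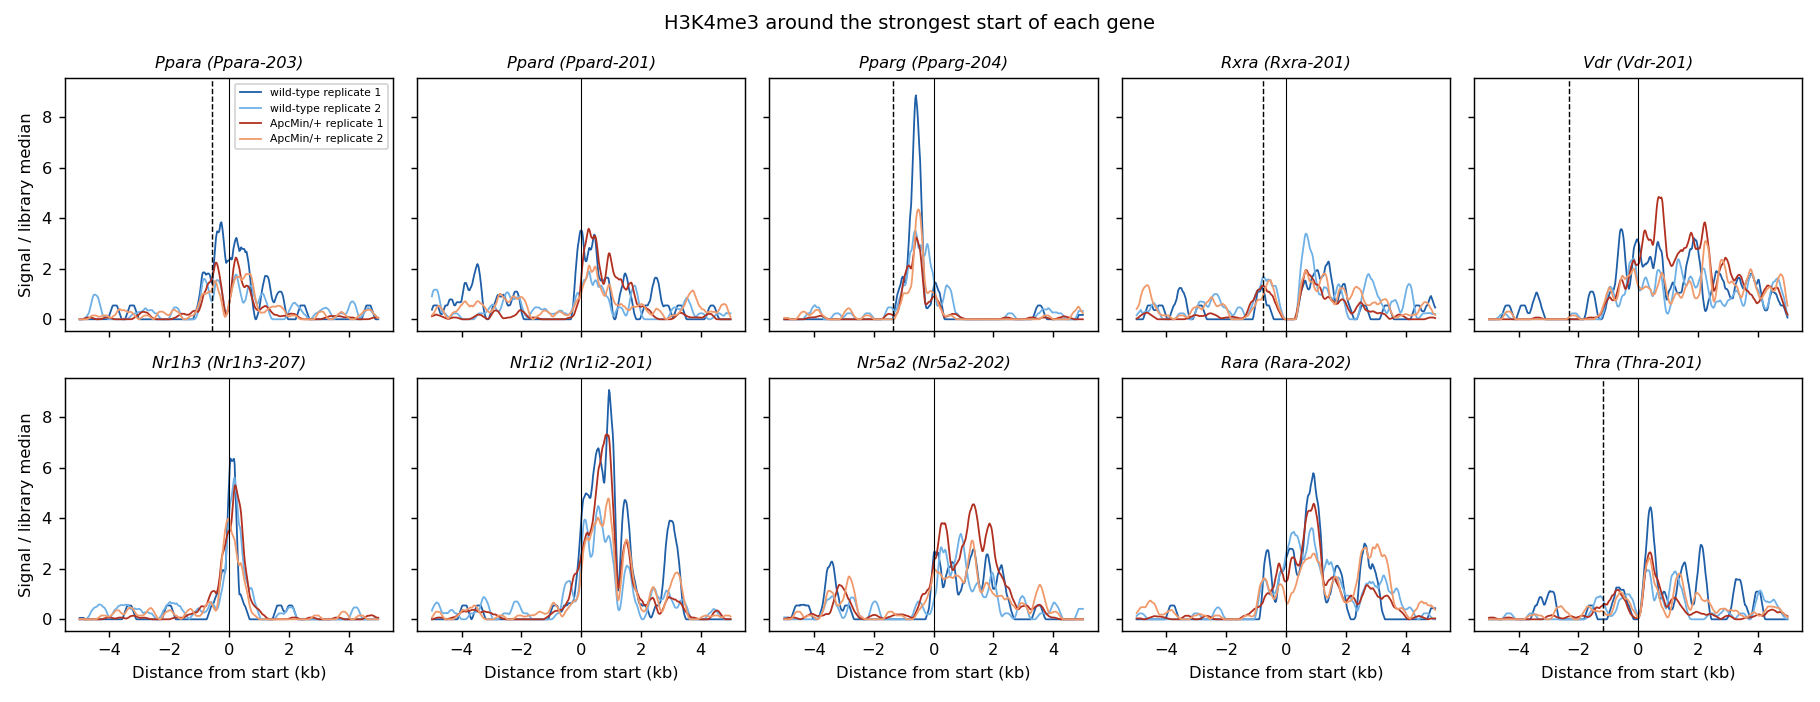
H3K4me3 signal from 5 kb upstream to 5 kb downstream of the strongest start of each gene, in bins of 20 bp smoothed over 300 bp and divided by the library's median tested start, with 1 line per library, a solid line at the start and a dashed line at the gene 5′ end where that lies elsewhere in the plot. The mark of *Nr5a2* and *Rara* is broad and extends downstream, that of *Pparg* lies upstream, and *Rxra* has a trough at the start itself. The mark of *Vdr* is broad, with its highest point at -570 and -150 bp from the start in the wild-type and at 690 and 2250 bp in the ApcMin/+ libraries. Within 1000 bp of the start, however, 71.0% of the signal lay downstream in ApcMin/+ replicate 1 and 47.1% to 48.7% in the other libraries, ApcMin/+ replicate 2 included. A shift of the mark between genotypes was not tested.

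By their 5′ ends, relative to the library's median tested promoter and averaged over the 4 libraries, the 10 genes ranked *Nr1i2* (2.59 ± 0.61, SD, n = 4 libraries), *Nr1h3* (1.64 ± 0.29), *Pparg* (1.15 ± 0.41), *Ppard* (1.13 ± 0.29), *Ppara* (1.08 ± 0.43), *Rxra* (0.47 ± 0.19), *Thra* (0.44 ± 0.041), *Rara* (0.37 ± 0.096), *Nr5a2* (0.37 ± 0.26) and *Vdr* (0.065 ± 0.083). The ranges of neighbours did not overlap between *Nr1i2* and *Nr1h3*, between *Ppara* and *Rxra* and between *Nr5a2* and *Vdr*, and overlapped for the other 6 pairs. By the strongest start the order was *Nr1i2*, *Rara*, *Vdr*, *Nr1h3*, *Pparg*, *Ppara*, *Nr5a2*, *Ppard*, *Thra* and *Rxra*, from 2.71 ± 0.67 to 0.94 ± 0.29 times the median tested start. There, the ranges of all neighbours overlapped, while those of genes further apart in the order, such as *Nr1i2* and *Nr1h3* or *Rara* and *Thra*, did not. In both orders *Nr1h3* is placed by the window that it shares with *Acp2* and *Gm13783*. The start of its coding transcripts was at 1.03 times the median tested start.

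CpG number varied widely among the starts. Over the 39 starts it ranged from 4 to 151 in 1000 bp, and its Spearman correlation with the mean signal was 0.66, against 0.70 over all 52546 starts of protein-coding genes; starts of 1 gene can share sequence and signal, so these are descriptions. Marked starts of all genes held a median of 61 CpGs and unmarked ones 13. Of the strongest starts of the receptors, Rxra-201 held 151, Ppara-203 100, Thra-201 88, Rara-202 74, Ppard-201 66 and Vdr-201 58, whereas the unmarked Pparg-201 held 7. Pparg-204, Nr1h3-207 and Nr5a2-202 held 38 each, below the lower quartile of marked starts (41). Pparg-202, towards which most signal in the window of Pparg-204 lay, held 73. *Nr1i2* had the fewest of the strongest starts, with 9 CpGs, and the highest signal. Other starts with few CpGs whose mean signal reached 2 were Vdr-205 with 11, Thra-206 with 13, Thra-203 with 16 and Ppard-204 with 19. The window of Vdr-205 overlaps that of Vdr-201, and 82.3% to 96.0% of its signal lay on that side. At Thra-206 22.8% to 47.8% of the signal lay downstream, and the rest on the side of Thra-201. Neither is thus shown to carry a mark of its own. The 5′ end of *Nr5a2*, with 5 CpGs, also had a mean signal above 2, but of its 4 libraries only ApcMin/+ replicate 1 exceeded that level.

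**Figure D3:**
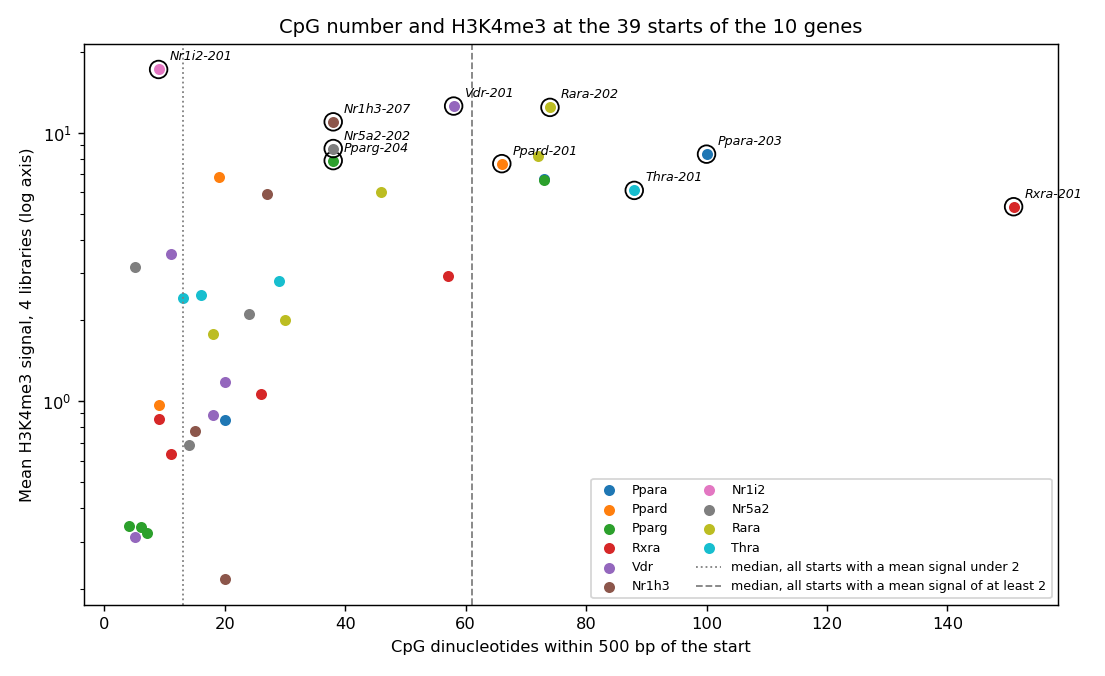
Mean H3K4me3 signal over the 4 libraries (log axis) against the number of CpGs within 500 bp on each side, for the 39 starts of the 10 genes, coloured by gene, with the strongest start of each gene ringed and named. Grey lines mark the median CpG number of all starts below (13) and at or above (61) a mean signal of 2, and Nr1i2-201 stands at the top left with 9 CpGs.

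Short motifs were searched on both strands in the same 250 upstream bases. AGGTCA is the half-site that many of these receptors bind. Among the 24 marked starts it was found upstream of Vdr-205 (1 match), Nr5a2-201 (1) and Ppard-204 (1). Over all genes AGGTCA was found upstream of 10.975% of marked starts, and of 14.4% of all 52546 starts, marked or not. GGGCGG, a GC box, was found upstream of 54.4% of the marked and 12.3% of the unmarked starts of all genes, and among the strongest starts upstream of Ppara-203 (4 matches), Thra-201 (4), Vdr-201 (3), Rara-202 (3), Rxra-201 (3), Ppard-201 (2), Pparg-204 (2) and Nr1h3-207 (2), but not of Nr1i2-201 or Nr5a2-202. Among the 24 marked starts TATAAA was found upstream of Nr5a2-201, Nr5a2-202, Pparg-202 and Rxra-204, and it was found upstream of 6.16% of marked starts of all genes. A match is a run of letters and not a bound site, and overlaps between motifs were not removed.

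The comparison of genotypes asks whether promoter H3K4me3 of these receptors differs in villi of normal appearance between ApcMin/+ and wild-type mice. On the tracks as deposited, the signal was higher in the mean of the ApcMin/+ libraries for 9 of the 10 genes, with a median difference over the 10 of 0.83 on log2(signal + 1) against 0.85 over all 9931 tested promoters. The median of the receptors was thus close to that of promoters in general, and in each of the 9 genes ApcMin/+ replicate 1 was the highest library. None of the 9 that could be tested passed in limma at a Benjamini-Hochberg adjusted p of 0.05, nor did any other promoter (0.0% of 9931), although 131 promoters had an unadjusted p under 0.05. Among the 10 genes the largest difference was at the 5′ end of *Nr5a2*, at 1.36 ± 0.61 (SE; limma unadjusted p = 0.025, adjusted p = 0.683). It was followed by *Nr1h3* at 1.02 ± 1.23, *Rxra* at 0.91 ± 0.67, *Ppard* at 0.90 ± 1.08, *Nr1i2* at 0.86 ± 1.25, *Thra* at 0.80 ± 0.67, *Ppara* at 0.51 ± 1.04, *Rara* at 0.41 ± 0.61 and *Pparg* at 0.36 ± 1.07, with limma adjusted p from 0.683 to 0.763. Both ApcMin/+ libraries lay above both wild-type libraries for *Nr5a2*, *Rara* and *Thra*, which is 3 of 9 against 38.5% of tested promoters, and both lay below for none against 0.161%. Only ApcMin/+ replicate 1 reached a signal of 2 in these 3 genes. Their means thus reached the level for a test through the group where they were high. The count, and the *Nr5a2* difference, are therefore descriptions. In these 3 genes the lower ApcMin/+ library exceeded the higher wild-type library by less than the counting error, as at *Rara* (1.78, 95% exact Poisson interval 1.05 to 2.71, against 1.74, 0.57 to 4.08).

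With each library centred on its median tested promoter, the median difference of the 10 genes was -0.03 and none of the 9 passed, where 0.0503% of tested promoters passed as higher and 0.0705% as lower in ApcMin/+. The centred differences were 0.51 ± 0.59 for *Nr5a2*, 0.17 ± 0.29 for *Nr1h3*, 0.05 ± 0.49 for *Rxra*, 0.04 ± 0.29 for *Ppard*, 0.00 ± 0.36 for *Nr1i2*, -0.06 ± 0.50 for *Thra*, -0.35 ± 0.29 for *Ppara*, -0.45 ± 0.60 for *Rara* and -0.49 ± 0.29 for *Pparg* (limma adjusted p = 0.999 each). The direction of *Ppara*, *Pparg*, *Rara* and *Thra* thus turned with the scaling. No gene was higher in both ApcMin/+ libraries against 13.1% of tested promoters, and *Pparg* was lower in both against 14.3%. ApcMin/+ replicate 1 decided the values on the deposited scale: without it, the differences of *Ppara*, *Ppard*, *Pparg* and *Nr1i2* were -0.39, -0.10, -0.34 and -0.17, and those of *Nr5a2*, *Rxra*, *Rara*, *Thra* and *Nr1h3* were 0.18, 0.22, 0.12, 0.11 and 0.03. Without ApcMin/+ replicate 2, when ApcMin/+ is replicate 1 alone, the median difference of the 10 genes was 1.54, against 1.58 over all tested promoters. *Vdr* was not tested at its 5′ end, where its difference of -0.33 rested on 1 to 2 fragments per library.

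At the 24 marked starts of the 10 genes the result was the same in kind. None passed in limma, where 0.0% of the 13303 starts of all genes passed on the deposited scale and 0.0376% as higher and 0.113% as lower with centring. The genotypes did not overlap, with both ApcMin/+ values the higher, at 5 of the 24 starts (Nr5a2-201, Nr5a2-202, Rara-203, Thra-205 and Thra-203) against 38.2% of all, and below at none against 0.218%. Of these 5, all but Nr5a2-202 had wild-type values below 2 in both libraries, so their means reached that level through ApcMin/+ libraries. With centring both ApcMin/+ values were above at none against 12.2% and below at 4 (Ppard-204, Pparg-202, Pparg-204 and Nr1h3-202) against 15.2%. At Vdr-201, the start that carried the mark of *Vdr*, the difference was 1.04 ± 1.26 on the deposited scale (limma adjusted p = 0.692) and 0.17 ± 0.31 with centring.

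**Figure D4:**
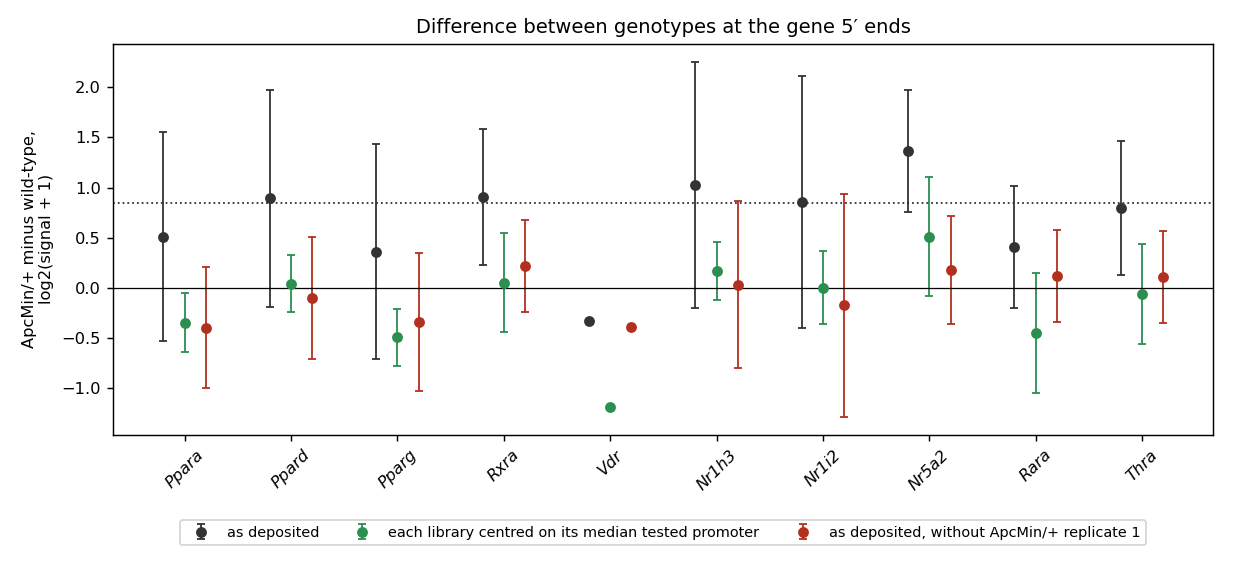
Difference of the ApcMin/+ and wild-type means on log2(signal + 1) at each gene 5′ end, with bars of 1 SE from limma, on the deposited scale, with each library centred on its median tested promoter, and without ApcMin/+ replicate 1; the dotted line is the median of all tested promoters on the deposited scale (0.85). The centred values lie between -0.49 and 0.51 for the 9 tested genes, and *Vdr*, which was not tested, has no bar.

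Other genes of the same pathways were given by their 5′ ends. Of 38 other nuclear receptor genes 20 were above the level for a test, against 9 of the 10 described here and 45.3% of all promoters. Of those 9, *Nr5a2*, *Rara* and *Thra* reached a signal of 2 in ApcMin/+ replicate 1 alone, and how far the other counts rest on that library was not examined. The highest mean signal of the 38 was at *Thrb* (13.2), the other thyroid hormone receptor, *Esrra* (12.3), an orphan receptor of mitochondrial genes, and *Nr3c2* (10.6), the mineralocorticoid receptor. Of 21 coregulators 20 were above the level for a test, led by the corepressor *Ncor1* (13.9), the H3K4 methyltransferase *Kmt2d* (12.3) and the coactivator *Ncoa4* (11.4). None of these 2 lists held a promoter that passed, and 5 promoters in each list, 25.0% of those tested, were higher in both ApcMin/+ libraries on the deposited scale, against 38.5% of all tested promoters.

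Among target genes of the receptors, 14 of 20 PPAR targets were above the level for a test, led by *Ucp2* (19.8), a mitochondrial carrier, and *Cpt2* (12.6) of mitochondrial fatty acid import. The same held for 7 of 10 liver X receptor targets, led by the sterol exporter *Abcg5* (20.6), *Lpcat3* (9.72) and *Mylip* (6.31), and for 8 of 11 pregnane X receptor targets, led by *Cyp3a13* (7.70), *Abcb1a* (6.89) and *Ugt1a1* (5.10). It held for 4 of 8 vitamin D receptor targets (*Slc30a10* 7.49, *Cldn12* 4.91, *Atp2b1* 3.68), for 4 of 17 retinoid genes (*Isx* 12.1, *Lrat* 6.77, *Dhrs3* 5.83), for 5 of 11 thyroid hormone genes (*Atp1b1* 19.4, *Thrb* 13.2, *Klf9* 9.73) and for 3 of 9 *Nr5a2* targets (*Abcg5* 20.6, *Nr0b2* 2.99, *Ccne1* 2.73). On the deposited scale none of these promoters passed, and the medians of the 7 lists were 0.04 to 0.63, against 0.35 over all promoters.

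*Pdk4*, a PPAR target that encodes the kinase restraining pyruvate oxidation, was the 1 gene of these lists to pass with centring, and none passed on the deposited scale. The wild-type libraries gave 8.49 and 3.69 there and the ApcMin/+ libraries 3.52 and 3.26. Both ApcMin/+ values were below both wild-type values, but on this deposited scale ApcMin/+ replicate 1 (26 fragments) and wild-type replicate 2 (35 fragments) were closer than their counting error. This does not hold for the centred scale of the call, since the median tested promoter was at 13.2 in ApcMin/+ replicate 1 and 3.06 in wild-type replicate 2. The difference was -0.60 ± 0.92 on the deposited scale (limma adjusted p = 0.683) and -1.46 ± 0.32 with centring (limma adjusted p = 0.0087). With centring and without ApcMin/+ replicate 1 it was -0.77, and without wild-type replicate 1 it was -1.17, with limma adjusted p of 1.00 in both, so the call rested on those libraries. With quantile normalization the limma adjusted p was 0.160.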

How the data were processed

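H3K4me3 CUT&RUN of villus cells was analysed in 2 wild-type and 2 ApcMin/+ libraries, grouped by the genotype in the labels; libraries of other antibodies, RNA-seq and older animals were not used here. Per the labels and the methods, the authors trimmed read pairs, aligned them to mm10 with Bowtie2, removed duplicates with Picard and reads of low mapping quality, and kept fragments of nucleosomal size. The deposited values are signal, the coverage per base written by HOMER, which the authors brought to 10000000 tags in each library and adjusted for fragment length, with no subtraction of a no-antibody control. Count models were not applied, as coverage is no count. The labels give 5 weeks of age and the methods a slightly older one.

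Signal was averaged from 1000 bp upstream to 1000 bp downstream of the 5′ ends of 21938 protein-coding genes (GENCODE M21, 21 chromosomes) and of their 52546 transcript starts, starts of 1 gene within 500 bp being joined. Genotypes were compared with limma (version 3.58.1, trended, R 4.3.3) at promoters whose mean signal reached 2, on log2(signal + 1), which understates differences at low signal, with Benjamini-Hochberg adjustment over all promoters tested. Fragments were the summed signal over the track's sum per tag; for the median tested promoter these were 13 and 29 in the wild-type and 98 and 46 in the ApcMin/+ libraries. Intervals (95%, on fragments rounded to whole numbers) cover counting error only. The CUT&RUN methods name 2 mice of each genotype at the younger age, as many as the libraries, while the labels tie no library to a mouse; p-values measure the spread between these libraries. Enriched regions were called on the mean of the 4 tracks at 5 times the genome mean, in 100 bp bins joined over 500 bp, and kept from 300 bp on. Bases were read from GRCm38.p6, which is mm10 (1000 of 1000 RefSeq promoter sequences checked were identical to it). Python 3.11.15 was used with scipy 1.17.1, pandas 2.3.3 and numpy 2.4.6, and the fit was tested on simulated data.

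The 10 genes and the gene lists were chosen with earlier results of these data known. All 10 were named; of each other list the 3 genes with the highest mean signal and any past the threshold were named, and of the starts the gene 5′ end and every one whose mean signal reached 2, to which the weak start Pparg-201 was added after its values were seen. The starts whose upstream bases are printed and the pairs of starts whose shares are given were likewise chosen after their values were seen. A few values that these rules name are not reported here. The alternatives were the scaling between libraries, the window, the pseudocount, the filter, the start set, a replicate block and leaving out each library.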

Additional observations from a re-analysis of the deposited data

How the results depend on the processing

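No alternative brought the test of a receptor 5′ end past the limma threshold other than leaving out ApcMin/+ replicate 2, under which most tested promoters passed. In that fit ApcMin/+ is replicate 1 alone and assumed to vary like the wild-type libraries. The number of promoters called was 0 as reported, 12 with centring, 2 with quantile normalization, 1 with the replicate block and 15 with the replicate block and centring, and 0 to 6478 when libraries were left out in turn (with or without centring); for all starts it was 0, 20 with centring and 0 to 8484. The other scaling, window, pseudocount, filter and start set alternatives called 0. The labels number the replicates, and with 2 pairs it cannot be told whether the shared number pairs the samples. The correlation of their deviations was 0.196, a measure that ignores shifts of a whole library. In both genotypes replicate 1 had the larger share of signal in enriched regions (22.6% against 11.9% in wild-type, 43.3% against 16.4% in ApcMin/+). A shared batch was not tested, and the replicate block called none of the 10 genes.

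The median difference of the 10 genes was 0.83 as reported, -0.027 with centring (with and without the replicate block), 0.026 over the 9 genes present with quantile normalization, 0.43 with a pseudocount of 5, 1.09 with division by background, and -0.28 to 1.54 when libraries were left out. The number of genes higher in both ApcMin/+ libraries was 3 as reported, 1 with either other window or the strongest start, 0 with centring, quantile normalization, division by background or a minimum of 5, and 0 to 9 when libraries were left out. The number lower in both was 0, 1 with centring, 2 with quantile normalization and 0 to 4 when libraries were left out.

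Directions turned for *Ppara* (-0.35 with centring, with and without the block, -0.33 with quantile normalization), *Pparg* (-0.49, -0.45), *Rara* (-0.45, -0.26) and *Thra* (-0.056 with centring alone or with the block), for *Nr1i2* with quantile normalization (-0.021), and for *Vdr* with a window of 2000 bp (0.28) and at its strongest start (1.04). When libraries were left out, with or without centring, the differences ran from -0.78 to 1.41 for *Ppara*, -0.24 to 1.89 for *Ppard*, -0.82 to 1.06 for *Pparg*, -0.47 to 1.60 for *Rxra*, -1.86 to 0.044 for *Vdr*, -0.093 to 2.01 for *Nr1h3*, -0.32 to 1.89 for *Nr1i2*, -0.89 to 0.69 for *Rara* and -0.19 to 1.49 for *Thra*, and stayed above 0 for *Nr5a2* (0.05 to 2.55). The cause of these turns was not tested. Depth limits weak starts most, where a library held 1 to 6 fragments.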
